A study of Homo sapiens with 11 samples.

Results

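The genes described here are 55 genes of the cell division cycle, of 28395 genes in the count tables. They were found by matching the Entrez identifiers of the tables to their symbols and were kept in 2 groups, 23 genes of DNA replication and G1/S (here G1/S genes) and 32 genes of G2 and mitosis (here G2/M genes). They were measured by RNA-Seq in PC3 and DU145, established lines of human prostate cancer, which had received either the ST6GAL1 open reading frame or a negative control by lentivirus and were kept as stable transduced populations. ST6GAL1 is the sialyltransferase that adds α2-6 linked sialic acid to N-glycans. PC3 is represented by 3 control and 3 overexpression libraries, and DU145 by 3 control libraries and the overexpression replicates 2 and 3. Cells of every group carry a lentivirus. The labels do not tie the replicates to separate transductions, so p-values measure only the spread between these libraries, which may be technical.

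A cell that enters the cycle first licenses its replication origins by loading the MCM helicase, and then fires them and copies its DNA with polymerases that need a supply of deoxynucleotides. Transcription of these genes is driven by E2F factors once the retinoblastoma protein is phosphorylated. The genes of chromosome condensation, spindle assembly and cytokinesis are transcribed later, in G2 and mitosis, under FOXM1, MYBL2 and the MuvB complex. In a bulk library, fewer cells in a phase and less of the RNA in each such cell cannot be told apart, and cell cycle phases were not counted in these cells.

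ST6GAL1 itself was read at 2.97, 2.09 and 3.07 normalized CPM (counts per library size after TMM scaling) in the PC3 control libraries and at 33.4, 31.8 and 32.6 with overexpression. In DU145 it was read at 14.2, 13.0 and 11.3 in control and 348 and 298 in overexpression libraries. Total counts lay between 13194485 and 18201359, and a count of 3 corresponded to between 0.165 and 0.227 CPM, a floor that covers counting error only. All 55 genes passed the expression filter in every comparison. The overexpression libraries of DU145 differed from each other more than any other pair of replicates, with a chi-square per degree of freedom of 12.58 against 1.373 to 5.21 for the other pairs. The summed level of 5 epithelial markers (KRT8, KRT18, KRT19, EPCAM and CDH1) lay at 869 to 902 CPM in PC3 control and 888 to 898 in PC3 overexpression libraries, and at 1300.0 to 1340.0 in DU145 control against 1030.0 to 1170.0 in DU145 overexpression libraries. In PC3 CDH1 rose by 1.37 and KRT19 by 0.15 on the log2 scale while KRT8 fell, and in DU145 CDH1 rose by 0.26 while the other 4 fell. For 5 androgen receptor and luminal markers the sum lay at 13.4 to 15.2 CPM in PC3 control against 14.3 to 15.1 in overexpression, where TMPRSS2 rose by 0.70, and at 19.3 to 20.7 against 21.9 to 24.1 in DU145, where the sums of the groups did not overlap. KLK3 and KLK2 were under the expression filter in both lines. For 10 markers of blood, stromal and endothelial cells the sum lay at 35.7 to 37.7 CPM in PC3 control against 37.2 to 42.0 in overexpression, and at 5.3 to 7.96 against 3.93 to 7.96 in DU145. Of these 10, PTPRC, CD3E, LYZ, DCN, LUM, VWF and CDH5 did not pass the filter in either line, while in PC3 COL3A1 rose by 1.98 and COL1A1 fell by 0.47 on the log2 scale, with PECAM1 at -0.14 (adjusted p = 0.388). In DU145 PECAM1 rose by 1.63 and COL1A1 was at -0.33 (adjusted p = 0.486). The part of these markers in the results was not tested.

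The 2 groups of genes also differ in the letters of their promoters, which the choice of genes did not use. RefSeq promoters (GRCh38.p14, 250 bases before to 50 after the start) were at hand for 46 of the 55 genes and were searched on both strands for the CHR letters TTTGAA, for CCAAT and for the E2F core letters TTCCCGC or TTGGCGC. The CHR is known as the element at which MuvB acts, and CCAAT as the site of NF-Y. TTTGAA stood in 16 of 26 G2/M promoters and in 1 of 20 G1/S promoters, against 9.43% of the 11587 promoters of tested genes. CCAAT stood in 19 of 26 and in 15 of 20, against 36.2%, and both TTTGAA and CCAAT in 13 of 26 and 1 of 20, against 3.96%. An E2F core stood in 15 of 20 G1/S and 4 of 26 G2/M promoters, against 14.5%. The 200 bases before the start are printed for the genes on which the results turn, whether they hold a motif or not. These are the 6 genes whose change differed between the lines (TYMS, POLA1, RRM2, TOP2A, HMMR and NDC80), the gene of each group with the largest fall in PC3 (GINS2 and CDC20), and the 3 of each group with the smallest adjusted p in DU145 (RRM2, UHRF1 and FEN1, and AURKB, BUB1 and MYBL2). In them capitals mark the letters of the 3 motifs. A motif on the other strand stands as its reverse complement, so that CCAAT there reads ATTGG.
GINS2 (chr16:85688955-85689154, minus strand): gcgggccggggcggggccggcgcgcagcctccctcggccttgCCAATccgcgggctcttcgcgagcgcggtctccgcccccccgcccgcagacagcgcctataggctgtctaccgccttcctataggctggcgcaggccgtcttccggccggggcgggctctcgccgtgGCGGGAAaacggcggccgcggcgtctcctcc
RRM2 (chr2:10122539-10122738, plus strand): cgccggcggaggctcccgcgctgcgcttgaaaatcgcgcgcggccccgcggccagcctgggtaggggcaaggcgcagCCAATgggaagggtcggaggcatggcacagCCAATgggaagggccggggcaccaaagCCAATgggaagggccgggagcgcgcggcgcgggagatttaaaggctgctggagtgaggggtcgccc
TYMS (chr18:657453-657652, plus strand): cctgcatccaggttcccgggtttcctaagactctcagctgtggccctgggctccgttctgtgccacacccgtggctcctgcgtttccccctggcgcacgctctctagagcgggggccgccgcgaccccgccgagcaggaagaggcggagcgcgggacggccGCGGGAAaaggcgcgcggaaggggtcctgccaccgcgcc
POLA1 (chrX:24693718-24693917, plus strand): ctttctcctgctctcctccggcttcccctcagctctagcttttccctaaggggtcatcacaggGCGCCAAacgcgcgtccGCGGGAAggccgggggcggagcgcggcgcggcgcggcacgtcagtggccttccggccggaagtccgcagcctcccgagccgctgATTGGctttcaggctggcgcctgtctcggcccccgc
UHRF1 (chr19:4909301-4909500, plus strand): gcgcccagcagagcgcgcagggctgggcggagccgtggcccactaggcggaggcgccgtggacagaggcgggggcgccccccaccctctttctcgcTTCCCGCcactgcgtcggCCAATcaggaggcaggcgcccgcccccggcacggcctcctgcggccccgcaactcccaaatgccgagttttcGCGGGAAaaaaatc
FEN1 (chr11:61792711-61792910, plus strand): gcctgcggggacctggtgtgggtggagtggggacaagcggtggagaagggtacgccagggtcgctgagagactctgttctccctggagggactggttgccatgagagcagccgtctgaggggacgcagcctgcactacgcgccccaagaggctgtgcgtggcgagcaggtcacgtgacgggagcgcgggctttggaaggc
CDC20 (chr1:43358781-43358980, plus strand): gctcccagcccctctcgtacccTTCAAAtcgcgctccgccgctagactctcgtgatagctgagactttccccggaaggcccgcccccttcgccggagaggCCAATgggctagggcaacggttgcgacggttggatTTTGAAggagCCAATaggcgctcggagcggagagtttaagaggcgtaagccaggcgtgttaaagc
TOP2A (chr17:40417897-40418096, minus strand): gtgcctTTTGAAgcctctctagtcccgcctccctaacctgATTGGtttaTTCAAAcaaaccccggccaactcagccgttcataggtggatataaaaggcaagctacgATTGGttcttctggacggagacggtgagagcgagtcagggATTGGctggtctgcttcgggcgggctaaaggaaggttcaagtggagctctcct
HMMR (chr5:163460432-163460631, plus strand): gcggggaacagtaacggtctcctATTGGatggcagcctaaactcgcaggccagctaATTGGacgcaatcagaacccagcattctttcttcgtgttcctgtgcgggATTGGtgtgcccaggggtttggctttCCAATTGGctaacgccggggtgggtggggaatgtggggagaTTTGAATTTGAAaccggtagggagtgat
NDC80 (chr18:2571357-2571556, plus strand): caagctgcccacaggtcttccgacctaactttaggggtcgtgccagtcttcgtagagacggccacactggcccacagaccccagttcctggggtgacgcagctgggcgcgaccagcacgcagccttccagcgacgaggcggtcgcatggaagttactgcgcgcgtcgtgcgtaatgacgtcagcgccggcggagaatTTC
AURKB (chr17:8210226-8210425, minus strand): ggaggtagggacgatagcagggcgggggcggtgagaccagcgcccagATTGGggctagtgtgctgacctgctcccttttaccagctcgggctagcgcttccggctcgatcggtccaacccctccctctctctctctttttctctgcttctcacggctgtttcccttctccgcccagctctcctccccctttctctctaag
BUB1 (chr2:110678064-110678263, minus strand): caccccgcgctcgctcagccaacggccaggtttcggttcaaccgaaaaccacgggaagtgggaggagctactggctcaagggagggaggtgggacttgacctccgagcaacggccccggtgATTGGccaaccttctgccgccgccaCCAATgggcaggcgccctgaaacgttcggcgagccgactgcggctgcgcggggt
MYBL2 (chr20:43666914-43667113, plus strand): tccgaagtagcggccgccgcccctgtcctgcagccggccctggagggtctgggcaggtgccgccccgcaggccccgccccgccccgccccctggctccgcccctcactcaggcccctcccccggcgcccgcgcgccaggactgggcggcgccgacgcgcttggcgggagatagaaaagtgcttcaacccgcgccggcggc
In HMMR a TTTGAA stands close to the start, with CCAAT further upstream. HMMR has a pair of adjoining TTTGAA and a run of letters that reads CCAAT on each strand, counted once per strand. In CDC20 and TOP2A the TTTGAA lies further out, and in NDC80 the match runs over the start, so that its first 3 letters end the printed stretch. AURKB and BUB1 hold CCAAT without TTTGAA, and MYBL2 and FEN1 hold none of the motifs in the whole window, while TYMS, POLA1, UHRF1 and GINS2 hold an E2F core. RRM2 has CCAAT 3 times and no E2F core of these letters. A match is a description of the letters and not a bound site.

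PC3 overexpression cells were compared with PC3 control cells to ask which of these genes change with ST6GAL1. In PC3, 53 of the 55 genes fell at an adjusted p under 0.05 in edgeR's quasi-likelihood test, 22 of 23 G1/S and 31 of 32 G2/M genes, and 0 rose. With DESeq2 19 G1/S and 31 G2/M genes fell, with limma-voom 22 and 31, and 0 rose in either. Of all 13544 genes tested in PC3, 18.5% fell and 18.8% rose at this threshold. The falls were small. The median log2 fold change was -0.20 over the G1/S genes, a decrease of 13.0%, and -0.25 over the G2/M genes, a decrease of 16.2%, where the median of all tested genes was -0.00159. The 55 log2 fold changes ranged from -0.40 to -0.07, all below 0, as were 50.3% of all tested genes. None of the 55 also passed an absolute log2 fold change of 0.58, which 1.76% of all genes did in this direction. Every overexpression library was below every control library for 23 of 23 G1/S and 31 of 32 G2/M genes, against 23.0% of all tested genes. The genes that did not pass the test were CCNE2, the cyclin that starts S phase with CDK2, at -0.16 (adjusted p = 0.0599), and CENPF, a kinetochore protein of G2, at -0.07 (adjusted p = 0.0516). CCNE2 shares 1629 bases of exons with INTS8 on the opposite strand.

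The MCM2 to MCM7 subunits form the ring that unwinds DNA, and MCM10 activates it. All 7 genes fell in PC3, by 0.11 to 0.21 on the log2 scale. MCM6 did not pass without control replicate 1 or overexpression replicate 2 or 3, nor MCM10 without control replicate 1. Origin licensing and firing factors fell in 4 of 4, among them GINS2, a subunit of the GINS complex of the active helicase, which had the largest fall of the 55. GINS2 was read at 36.9, 36.7 and 37.9 normalized CPM in the control libraries and at 29.5, 26.5 and 28.8 with overexpression, a change of -0.40 ± 0.0575 on the log2 scale (adjusted p = 3.73e-07), where ± gives the standard error of the edgeR fit here and throughout. The groups did not overlap. CDC6, which loads the helicase, fell by 0.32 on the log2 scale.

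Nucleotide supply fell in 3 of 3 genes. TYMS, the thymidylate synthase, was read at 302, 268 and 286 normalized CPM in control and 237, 231 and 227 in overexpression libraries, a change of -0.30 ± 0.0327 on the log2 scale (adjusted p = 1.70e-09). The ribonucleotide reductase subunits RRM1 and RRM2 fell by 0.21 and 0.18. TYMS lies at chr18:657653-673578 of GRCh38, where its exons share 967 bases with ENOSF1 and 193 with TYMSOS on the opposite strand, and whether the counting used strand is not given in the sources used here. In all, 19 of the 55 genes share exon bases with a gene on the opposite strand. Polymerases, sliding clamp and flap nuclease fell in 5 of 5 genes, from RFC4, a subunit of the clamp loader, at -0.31 to POLE, the catalytic subunit of polymerase epsilon, at -0.08 (adjusted p = 0.0471). POLE passed in 5 of 13 alternative fits and, of the 6 that left out 1 library, only without control replicate 1. PCNA, the clamp, was read at 181, 154 and 168 normalized CPM in control and 142, 138 and 151 in overexpression libraries, a change of -0.23 ± 0.0493 on the log2 scale (adjusted p = 0.00182). Its groups lay close together, with control replicate 2 nearest to the overexpression libraries.

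UHRF1, which recognises hemimethylated DNA behind the fork and recruits the maintenance methyltransferase, had the smallest adjusted p of the G1/S genes in PC3. It was read at 124, 117 and 123 normalized CPM in control and 97.2, 93.7 and 91.7 in overexpression libraries, a change of -0.36 ± 0.0362 on the log2 scale (adjusted p = 6.58e-11), or 22.3% less. The range within either group was smaller than the gap between them. CHAF1A, the large subunit of the histone chaperone CAF-1, fell by 0.25. E2F1, a transcription factor of the G1/S genes, was read at 102, 107 and 104 normalized CPM in control and 96.4, 96.7 and 89.2 in overexpression libraries, a change of -0.15 ± 0.0377 on the log2 scale (adjusted p = 0.00143).

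Among the G2/M genes, CDC20 had the largest fall in PC3. CDC20 activates the anaphase-promoting complex, and was read at 186, 194 and 198 normalized CPM in control and 157, 147 and 143 in overexpression libraries, a change of -0.37 ± 0.0336 on the log2 scale (adjusted p = 4.43e-12). UBE2C, the ubiquitin-conjugating enzyme of that complex, and PTTG1, the securin that it destroys, fell by 0.30 and 0.26, so that all 3 anaphase genes passed. Cyclins, CDK1 and its phosphatase CDC25C fell in 5 of 5. CCNB1, the cyclin of mitotic entry, was read at 153, 148 and 152 normalized CPM in control and 125, 123 and 119.8 in overexpression libraries, a change of -0.30 ± 0.0328 on the log2 scale (adjusted p = 6.00e-10). CDK1, its kinase partner, was read at 227, 200.1 and 217 normalized CPM in control and 187, 183 and 193 in overexpression libraries, a change of -0.19 ± 0.0348 on the log2 scale (adjusted p = 2.69e-05). For both genes the control libraries were all above the overexpression libraries, by a smaller margin for CDK1.

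Mitotic kinases and checkpoint genes fell in 7 of 7, between -0.28 and -0.23. BIRC5, the survivin subunit of the chromosomal passenger complex around the AURKB kinase, was read at 318, 312 and 336 normalized CPM in control and 270.1, 263 and 261 in overexpression libraries, a change of -0.28 ± 0.0289 on the log2 scale (adjusted p = 1.38e-10). Centromere and kinetochore genes passed in 4 of 5, and motors and spindle factors in 8 of 8, led by HMMR, a spindle assembly factor, at -0.36. TOP2A, the topoisomerase that untangles sister chromatids, was read at 402, 369 and 366 normalized CPM in control and 316, 302 and 306 in overexpression libraries, a change of -0.30 ± 0.0302 on the log2 scale (adjusted p = 1.48e-10). MKI67, the surfactant of mitotic chromosomes whose protein is the Ki-67 proliferation marker, was read at 293, 284 and 273 normalized CPM in control and 263, 264 and 248 in overexpression libraries, a change of -0.14 ± 0.0299 on the log2 scale (adjusted p = 0.000359). Among the G2/M genes CENPF alone had a log2 fold change nearer to 0 than MKI67. The transcription factors FOXM1 and MYBL2 both fell. FOXM1 was read at 183, 187 and 193 normalized CPM in control and 169, 168 and 162 in overexpression libraries, a change of -0.17 ± 0.0312 on the log2 scale (adjusted p = 1.69e-05). MYBL2 was read at 141, 149 and 141 in control and 122, 121 and 122 in overexpression libraries, a change of -0.24 ± 0.0336 on the log2 scale (adjusted p = 2.07e-07). Fitting all 4 groups together put the larger spread of the DU145 libraries in the estimate. The G1/S count in PC3 then went from 22 to 12 and the G2/M count from 31 to 29. MKI67 (adjusted p = 0.125), PCNA (adjusted p = 0.0768) and E2F1 (adjusted p = 0.152) did not pass in this fit. The share of all tested genes passing in this fit was not taken.

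**Figure D1:**
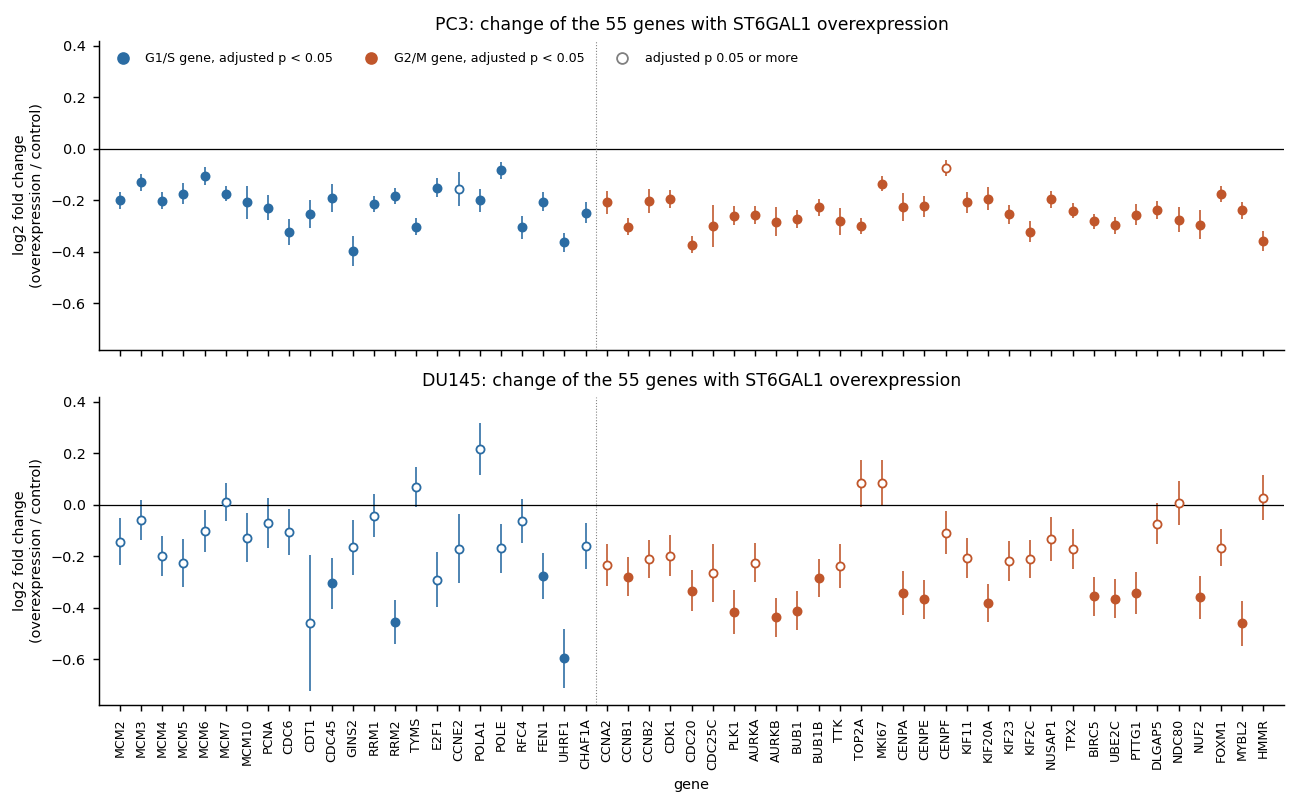
Log2 fold change of each of the 55 genes with ST6GAL1 overexpression (y axis, overexpression over control) in PC3 (above) and DU145 (below), by gene (x axis), with bars of 1 standard error. Filled points have an edgeR adjusted p under 0.05. In PC3 all 55 lie below 0 and 53 are filled, and in DU145 48 lie below 0 and 18 are filled.

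The same comparison was made in DU145 between 2 overexpression and 3 control libraries. In DU145, 18 of the 55 genes fell at an adjusted p under 0.05, 4 of 23 G1/S and 14 of 32 G2/M genes, and 0 rose. Of all 13676 genes tested, 9.42% fell and 10.7% rose at this threshold. The median log2 fold change was -0.16 over the G1/S genes, a decrease of 10.5%, and -0.24 over the G2/M genes, a decrease of 15.0%, where all tested genes had a median of -0.00161. In all, 48 genes were below 0, as were 50.2% of all tested genes, and the median standard error was 0.0836, compared with 0.0369 in PC3. At an unadjusted p under 0.05, 32 genes were lower and 0 higher. The share of all tested genes at this looser cut was not taken, so these 2 counts have nothing to be read against. The overexpression libraries were both below every control library for 25 of 32 G2/M genes and 7 of 23 G1/S genes, against 23.1% of all tested genes, and both above for 1 G1/S gene, POLA1, against 25.2%.

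The G1/S genes that fell in DU145 were UHRF1, RRM2, CDC45 and FEN1. UHRF1 was read at 73.4, 70.6 and 73.8 normalized CPM in control and 40.8 and 55.02 in overexpression libraries, a change of -0.60 ± 0.115 on the log2 scale (adjusted p = 0.0036), or 33.9% less. It alone of the 55 also passed the log2 fold change of 0.58, which 4.61% of all tested genes did in this direction. Without control replicate 2 its adjusted p was 0.0516, and without overexpression replicate 2 its log2 fold change was -0.41. RRM2, the regulated subunit of ribonucleotide reductase, was read at 364, 376 and 335 normalized CPM in control and 279 and 244 in overexpression libraries, a change of -0.46 ± 0.0842 on the log2 scale (adjusted p = 0.00163). Both overexpression libraries were well under the lowest control library. FEN1, the flap nuclease of lagging strand synthesis, was read at 145, 145 and 120.4 normalized CPM in control and 111 and 114 in overexpression libraries, a change of -0.28 ± 0.0892 on the log2 scale (adjusted p = 0.0411). CDC45, a helicase cofactor, was at -0.31 (adjusted p = 0.0445). The lowest FEN1 control library, replicate 3, lay close to the overexpression libraries, and FEN1 and CDC45 did not pass in 3 of the 5 fits that left out 1 library.

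None of the 7 MCM genes passed in edgeR in DU145, with log2 fold changes between -0.23 and 0.01. MCM4 (adjusted p = 0.0895) and MCM5 (adjusted p = 0.108) each passed in 4 of the 12 alternative fits. PCNA was read at 209, 216 and 176 normalized CPM in control and 203 and 178 in overexpression libraries, a change of -0.07 ± 0.0973 on the log2 scale (adjusted p = 0.661). Its groups overlapped. E2F1 was read at 65.5, 61.3 and 63.6 normalized CPM in control and 45.0 and 58.4 in overexpression libraries, a change of -0.29 ± 0.106 on the log2 scale (adjusted p = 0.0722). The overexpression libraries of E2F1 stood apart from each other, with replicate 2 the lower. CDT1, which loads the helicase with CDC6, showed this most, at 25.1, 27.8 and 30.1 normalized CPM in control and 14.0 and 25.9 in overexpression libraries, a change of -0.46 ± 0.264 on the log2 scale (adjusted p = 0.302).

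The transcripts of these genes differ in base composition, and the DU145 changes went with it. A smooth trend on GC content and transcript length, over all tested genes, took up 9.17% of the variance in the DU145 changes and 0.531% in the PC3 changes. With the trend removed, CDT1 (GC content 64.3%) moved from -0.46 to -0.06, E2F1 (61.6%) from -0.29 to 0.02 and UHRF1 (55.7%) from -0.60 to -0.46. RRM2 (42.1%) moved the other way, from -0.46 to -0.50. Over the lists, the DU145 median moved from -0.16 to -0.10 for the G1/S genes and from -0.24 to -0.26 for the G2/M genes. In PC3 the medians with the trend removed were -0.20 and -0.24.

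Mitotic kinases and checkpoint genes passed in 5 of 7 in DU145. AURKB, the kinase of the chromosomal passenger complex, was read at 123, 125 and 123 normalized CPM in control and 88.2 and 94.6 in overexpression libraries, a change of -0.44 ± 0.0750 on the log2 scale (adjusted p = 0.000929). BUB1, a spindle checkpoint kinase, was read at 329.9, 327 and 347 normalized CPM in control and 264 and 239 in overexpression libraries, a change of -0.41 ± 0.0767 on the log2 scale (adjusted p = 0.00171). Neither gene had overlapping groups, and both passed in each of the 12 alternative fits. PLK1, BUB1B and BIRC5 fell by 0.42, 0.29 and 0.36, while AURKA, the centrosomal kinase, was at -0.23 (adjusted p = 0.0521) and TTK, the checkpoint kinase Mps1, at -0.24 (adjusted p = 0.0649).

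The 3 anaphase genes all fell in DU145, CDC20 by 0.34, UBE2C by 0.36 and PTTG1 by 0.34. Of the kinetochore genes CENPA, the centromeric histone, CENPE, a kinetochore motor, and NUF2, of the NDC80 complex, fell by 0.34, 0.37 and 0.36. Of the 8 motors and spindle factors only KIF20A, the kinesin that carries the passenger complex to the midzone, passed, with a fall of 0.38. MYBL2 was read at 282, 292 and 277 normalized CPM in control and 186 and 226 in overexpression libraries, a change of -0.46 ± 0.0867 on the log2 scale (adjusted p = 0.00182). With the trend removed it was -0.20. FOXM1, at 246, 244 and 259 normalized CPM in control and 219 and 226 in overexpression libraries, changed by -0.17 ± 0.0722 on the log2 scale (adjusted p = 0.124). FOXM1 shares 782 bases of exons with ITFG2 on the opposite strand.

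Of the cyclins and CDK1, CCNB1 alone passed in DU145. CCNB1 was read at 248, 276 and 267 normalized CPM in control and 219.8 and 215 in overexpression libraries, a change of -0.28 ± 0.0756 on the log2 scale (adjusted p = 0.018). CDK1 was read at 349, 369 and 366 normalized CPM in control and 337 and 293 in overexpression libraries, a change of -0.20 ± 0.0805 on the log2 scale (adjusted p = 0.101). Its groups did not overlap, with overexpression replicate 2 close to control replicate 1. Both genes of chromosome structure were above 0 without passing. TOP2A, at 1767, 1855 and 1942 normalized CPM in control and 2108 and 1820.2 in overexpression libraries, changed by 0.08 ± 0.0907 on the log2 scale (adjusted p = 0.569). MKI67, at 1209, 1053 and 1267 in control and 1239 and 1255 in overexpression libraries, changed by 0.08 ± 0.0904 on the log2 scale (adjusted p = 0.558). The groups of both genes overlapped, and for TOP2A replicate 2 lay above and replicate 3 within the control libraries. Without control replicate 2 the DU145 counts were 1 G1/S and 9 G2/M genes, and without overexpression replicate 3 they were 9 G1/S and 14 G2/M genes, 1 of the 9 higher. Without overexpression replicate 2 they were 3 and 25. UHRF1, CDC45, FEN1, CCNB1, CDC20, BUB1B, CENPA and PTTG1 were the genes that did not pass without control replicate 2. With a library left out, the share of all tested genes passing was not taken.

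The level of the genes was also followed library by library, as the median log2 ratio of a group of genes to the control libraries of the line (for a control library, to the other controls). In PC3 the G1/S median was 0.0359, -0.0765 and 0.0331 in control and -0.168, -0.239 and -0.198 in overexpression libraries. The G2/M median was 0.0266, -0.0421 and 0.0100 in control and -0.251, -0.241 and -0.268 in overexpression libraries. Each PC3 overexpression library had all 55 genes below the control mean, and the medians of the controls lay apart from those of the overexpression libraries. The share of all tested genes was not taken, and the count mostly restates that the PC3 groups did not overlap. In DU145 the G2/M median was -0.0442, 0.0375 and 0.0131 in control, -0.172 in overexpression replicate 2 and -0.305 in replicate 3. The DU145 G1/S median was 0.0702, 0.0610 and -0.153 in control, and -0.0998 and -0.145 in overexpression libraries. For the G1/S genes in DU145, the median of control replicate 3 was as low as those of the overexpression libraries, but the references differ. Control replicate 3 is set against the other controls, while the mean used for the overexpression libraries includes it. On a common scale its summed G1/S level was 3531.9 CPM, above the 3464.1 and 3367.0 of the overexpression libraries. The other controls lay at 3865.2 and 3886.2. Together the 55 genes took 0.692% to 0.726% of all counts in PC3 control and 0.599% to 0.611% in PC3 overexpression libraries, and 1.49% to 1.53% in DU145 control against 1.38% and 1.30% in overexpression libraries.

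**Figure D2:**
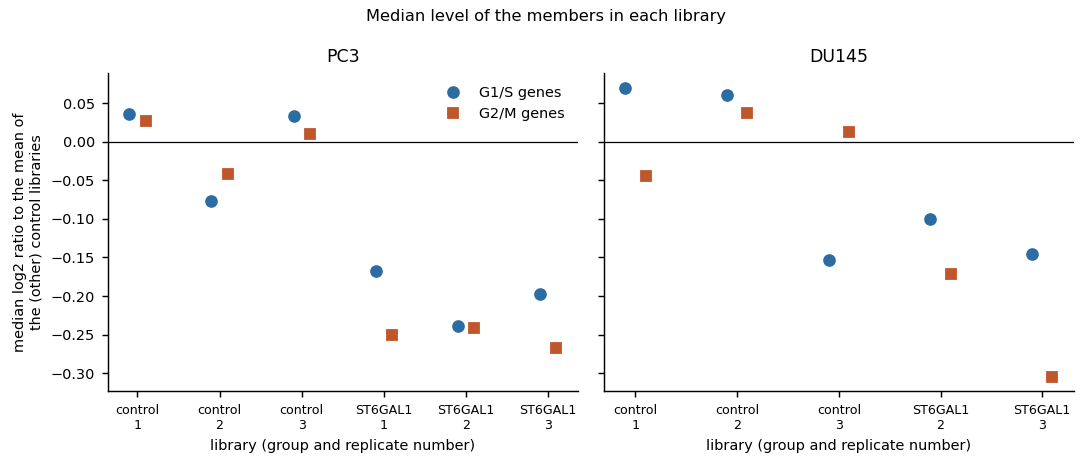
Median log2 ratio of the 23 G1/S genes (circles) and the 32 G2/M genes (squares) in each library to the mean of the control libraries of its line, or of the other controls for a control library, by library (x axis). The PC3 overexpression libraries lie between -0.268 and -0.168, and in DU145 control replicate 3 lies at -0.153 for the G1/S genes.

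To ask whether the response differed between the lines, the DU145 change minus the PC3 change was put to an interaction test that used all 11 libraries. Of the 55 genes, 6 passed an adjusted p under 0.05, 5 with a higher and 1 with a lower change in DU145, where 19.7% of all 14952 tested genes passed, 10.4% higher and 9.36% lower. The median difference was 0.05 over the G1/S and -0.00902 over the G2/M genes. At an unadjusted p under 0.05, 11 of the 55 genes passed. The share of all tested genes at this cut was not taken, but it cannot be lower than the 19.7% at the adjusted cut. In all, 18 genes fell in both lines and 2 passed in neither, CCNE2 and CENPF. These 18 are all the genes that fell in DU145, and the share of all tested genes that fell in both lines was not taken.

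RRM2 had the lower change in DU145, with a difference of -0.28 ± 0.0828 on the log2 scale (adjusted p = 0.0229). In PC3 it was read at 237, 224 and 232 normalized CPM in control and 211, 196 and 204 in overexpression libraries. It fell in both lines, further in DU145, but the difference did not pass in 5 of the 11 fits that left out 1 library. The 5 other genes fell in PC3 and did not pass in DU145.

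TYMS had a difference of 0.36 ± 0.0814 on the log2 scale (adjusted p = 0.00328), from 349, 382 and 338 normalized CPM in DU145 control to 385 and 362 in DU145 overexpression libraries. Its DU145 groups overlapped. TYMS and NDC80 lie on chromosome 18, where the tested neighbours of TYMS (30 genes) had a median log2 fold change of 0.22 in DU145 and 0.02 in PC3. Against them TYMS was -0.15 in DU145 and -0.32 in PC3. NDC80, of the kinetochore complex that binds microtubules, had a difference of 0.28 ± 0.0951 on the log2 scale (adjusted p = 0.048). It was read at 213, 218 and 200.3 normalized CPM in DU145 control and 229 and 193 in DU145 overexpression libraries, and at 59.5, 53.3 and 55.4 in PC3 control and 44.3, 47.3 and 47.5 in PC3 overexpression libraries. Its 34 neighbours had medians of 0.23 and 0.02. For the difference between the lines itself, in the joint fit, the neighbours of TYMS and those of NDC80 each had a median of 0.08. The part of the neighbours in these differences was not tested. NDC80 passed in 2 of the 11 fits that left out 1 library, and did not pass with limma-voom (adjusted p = 0.0693) or DESeq2 (adjusted p = 0.0802).

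POLA1, the catalytic subunit of the polymerase alpha that primes DNA synthesis, had the largest difference, 0.41 ± 0.105 on the log2 scale (adjusted p = 0.00949). It was read at 40.7, 40.3 and 39.5 normalized CPM in DU145 control and 51.7 and 41.8 in overexpression libraries, and at 66.2, 60.1 and 63.8 in PC3 control and 57.0, 53.2 and 55.7 in PC3 overexpression libraries. All PC3 overexpression libraries were below their controls and both DU145 overexpression libraries above theirs, replicate 3 only just, and the difference without DU145 overexpression replicate 2 was 0.24 (adjusted p = 0.0656). TOP2A had a difference of 0.38 ± 0.0851 on the log2 scale (adjusted p = 0.0036) and HMMR one of 0.38 ± 0.0897 on the log2 scale (adjusted p = 0.00521). HMMR was read at 186, 180.0 and 178 normalized CPM in DU145 control and 204 and 166 in overexpression libraries, and at 103, 99.7 and 101 in PC3 control and 79.7, 76.8 and 80.4 in PC3 overexpression libraries. For HMMR in DU145, overexpression replicate 2 lay above and replicate 3 below all controls. TYMS, TOP2A and HMMR passed in each of the 17 alternative fits. With the trend on GC content and length removed, the differences were 0.37 for TYMS, 0.34 for POLA1, 0.27 for TOP2A, 0.26 for HMMR, 0.17 for NDC80 and -0.35 for RRM2.

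**Figure D3:**
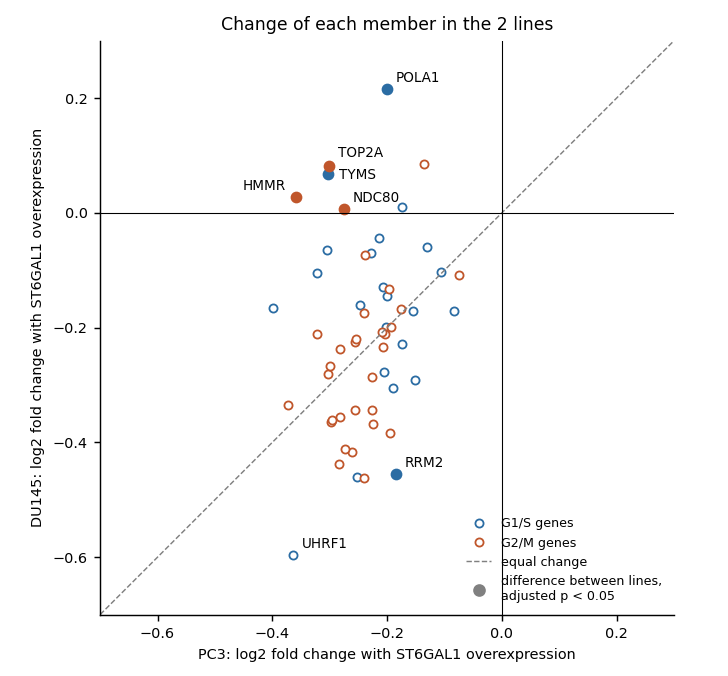
Log2 fold change with ST6GAL1 overexpression in DU145 (y axis) against that in PC3 (x axis), 1 point for each of the 55 genes, with G1/S and G2/M genes in different colours and the dashed line at equal change. Filled points are the 6 genes whose difference between the lines had an adjusted p under 0.05, of which TYMS, POLA1, TOP2A, HMMR and NDC80 lie above the line and RRM2 below it.

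The control cells of both lines were compared on a joint scale. The lines come from different patients, and any difference in when and how their libraries were made cannot be told apart from the line. All 32 G2/M genes were lower in PC3 than in DU145 at an adjusted p under 0.05, as were 42.8% of all tested genes, and 27 of them by more than 0.58 on the log2 scale, where 31.7% of all tested genes were lower and 33.2% higher by this rule. Their median log2 ratio of PC3 to DU145 was -1.25, or 58.1% less. Of the 23 G1/S genes 9 were lower and 4 higher by the same rule, with a median of -0.32. With the trend on GC content and length removed, the median was -0.11 for the G1/S and -1.12 for the G2/M genes. In normalized CPM, TOP2A was read at 402, 368 and 365 in PC3 and 1773, 1864 and 1948 in DU145 control libraries, a ratio of -2.30 ± 0.0594 on the log2 scale (adjusted p = 8.23e-18). KIF20A was read at 70.3, 73.9 and 72.4 in PC3 and 326, 336 and 330.3 in DU145, a ratio of -2.19 ± 0.0516 on the log2 scale (adjusted p = 1.95e-18). MKI67 was read at 293, 283 and 273 in PC3 and 1212, 1058 and 1271 in DU145, a ratio of -2.06 ± 0.0599 on the log2 scale (adjusted p = 5.29e-17). For these 3 genes every PC3 library was far below every DU145 library.

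The G1/S genes split between the lines. MCM4, a helicase subunit, was read at 160.5, 153 and 162 normalized CPM in PC3 and 478, 472 and 430.0 in DU145 control libraries, a ratio of -1.54 ± 0.0489 on the log2 scale (adjusted p = 2.09e-16). MCM10 was read at 31.7, 26.6 and 30.3 in PC3 and 77.0, 72.0 and 65.7 in DU145, a ratio of -1.28 ± 0.0772 on the log2 scale (adjusted p = 5.88e-12). CDC45 was read at 36.5, 36.6 and 38.1 in PC3 and 89.2, 86.1 and 71.1 in DU145, a ratio of -1.15 ± 0.0736 on the log2 scale (adjusted p = 1.45e-11). All 3 are helicase genes and were lower in every PC3 control library. The 4 genes that were higher in PC3 by more than 0.58 were CDT1, UHRF1, E2F1 and POLA1. At an adjusted p under 0.05 alone, 6 G1/S genes were higher and 13 lower in PC3. CDT1 was read at 52.7, 45.9 and 49.0 normalized CPM in PC3 and 25.2, 27.9 and 30.2 in DU145, a ratio of 0.83 ± 0.174 on the log2 scale (adjusted p = 0.00146). UHRF1 was read at 124, 116 and 123 in PC3 and 73.6, 70.9 and 74.0 in DU145, a ratio of 0.73 ± 0.0759 on the log2 scale (adjusted p = 1.02e-07). E2F1 was read at 102, 107 and 104 in PC3 and 65.7, 61.5 and 63.7 in DU145, a ratio of 0.71 ± 0.0722 on the log2 scale (adjusted p = 3.05e-08). The control libraries of the lines did not overlap for any of them. The ratio of summed G2/M to summed G1/S CPM was 1.531 to 1.574 in PC3 control and 1.493 to 1.533 in PC3 overexpression libraries, and 2.838 to 3.251 in DU145 control against 3.056 and 2.902 in DU145 overexpression libraries.

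Levels of different genes were compared per kilobase of transcript (RPKM, from the joint scale). In PC3 control cells UBE2C (180.0 RPKM), TYMS (176) and PCNA (131) were highest and MCM10 (6.49) lowest. In DU145 control cells TOP2A (327 RPKM), NUSAP1 (272), a microtubule bundling protein, and UBE2C (229) were highest and POLA1 (7.35) lowest. The median level was 35.0 RPKM over the G1/S and 36.7 over the G2/M genes in PC3, and 49.5 and 96.5 in DU145. UBE2C and TYMS both have copies named as pseudogenes in the annotation, with which reads may be shared.

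**Figure D4:**
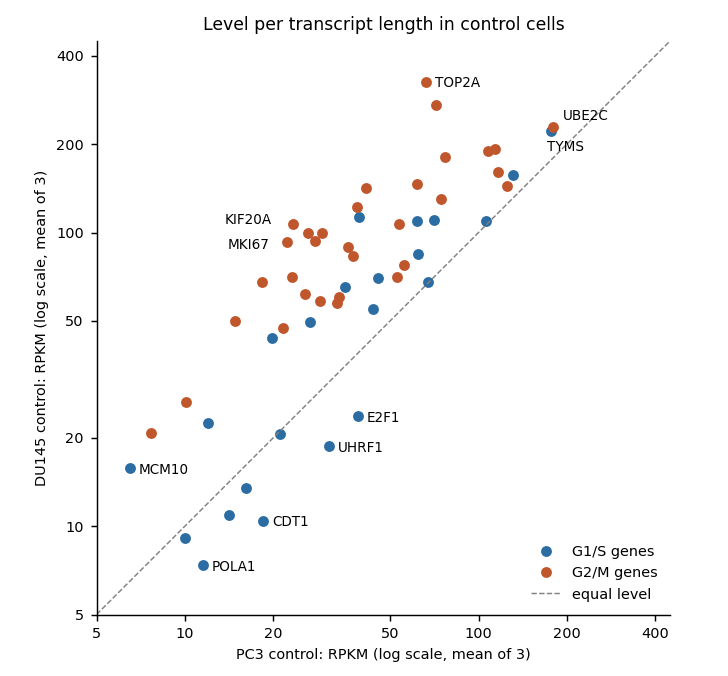
Level of the 55 genes in control cells of DU145 (y axis) and PC3 (x axis), in RPKM on log scales, as the mean of 3 libraries of each line, with the dashed line at equal level. The G2/M genes lie above the line, and 8 G1/S genes lie below it, among them CDT1, UHRF1, E2F1 and POLA1.

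Other genes of the cycle were taken as whole lists. Of all tested genes, 18.5% fell and 18.8% rose in PC3, and 9.42% and 10.7% in DU145. Of 42 other replication genes, 33 fell and 0 rose in PC3 with a median log2 fold change of -0.17, and 6 fell and 2 rose in DU145 with a median of -0.09. The lower share of this list was 78.6% in PC3 and 14.3% in DU145, the latter close to that of all genes. Of 62 tested other mitotic genes, 50 fell and 2 rose in PC3 (median -0.21), and 21 fell and 1 rose in DU145 (median -0.22). TK1, the thymidine kinase of the salvage pathway, was read at 199, 214 and 218 normalized CPM in PC3 control and 173, 176 and 174 in PC3 overexpression libraries, a change of -0.27 ± 0.0322 on the log2 scale (adjusted p = 6.68e-09). In DU145 it was read at 227, 238 and 237 in control and 132 and 177 in overexpression libraries, a change of -0.60 ± 0.112 on the log2 scale (adjusted p = 0.00494). CKAP2L, a spindle protein, had the largest change of the mitotic list in PC3, -0.44 ± 0.0400 on the log2 scale (adjusted p = 7.30e-12). SMC4, a condensin subunit, fell by 0.27. SGO2, a shugoshin that protects cohesion, rose by 0.29 ± 0.0398 on the log2 scale (adjusted p = 1.59e-07), and CDC25B, a phosphatase that primes mitotic entry, by 0.17 ± 0.0278 on the log2 scale (adjusted p = 4.10e-06). CLSPN, the claspin of the replication checkpoint, fell by 0.34 in PC3. In DU145 the replication genes RFC1, the large clamp loader subunit, and SLBP, the histone mRNA binding protein, rose by 0.53 and 0.44, and ASF1B, a histone chaperone, fell by 0.46. Of the other mitotic genes, PBK, a mitotic kinase, and CDCA2, a phosphatase targeting subunit, passed the fold threshold in DU145, at -0.62 ± 0.0799 on the log2 scale (adjusted p = 9.27e-05) and -0.63 ± 0.0745 on the log2 scale (adjusted p = 4.36e-05), and both lie on chromosome 8. NCAPG, a condensin subunit, was the mitotic gene that rose in DU145, by 0.24. The 50 tested neighbours of each gene on its chromosome had DU145 median log2 fold changes of -0.34 around PBK, -0.37 around CDCA2, 0.42 around NCAPG and 0.51 around RFC1, and the 49 neighbours of SLBP had a median of 0.40. NCAPG, RFC1 and SLBP lie on chromosome 4, where NCAPG was below its neighbours and RFC1 and SLBP were close to theirs.

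The G1 cyclins and CDKs, the RB proteins and the other genes of the E2F family were given the same tests. Of 18 tested G1 cyclins, CDKs, RB and E2F family genes, 11 fell and 1 rose in PC3, and 3 fell and 1 rose in DU145. The lower share was 61.1% in PC3 and 16.7% in DU145, against the 18.5% and 9.42% of all tested genes. CCND1, the D-type cyclin that starts phosphorylation of RB, was read at 869.5, 845 and 887 normalized CPM in PC3 control and 739, 720.1 and 753 in overexpression libraries, a change of -0.23 ± 0.0246 on the log2 scale (adjusted p = 2.64e-10). In DU145 it was read at 151, 150.3 and 167 in control and 75.3 and 89.3 in overexpression libraries, a change of -0.92 ± 0.0905 on the log2 scale (adjusted p = 7.69e-06). The difference between the lines was -0.69 ± 0.0881 on the log2 scale (adjusted p = 1.14e-05). Every overexpression library was below every control library in both lines. TFDP1, the partner of the E2F proteins, fell in PC3 by 0.18 and RBL2, the p130 pocket protein, rose by 0.15, while E2F8, a repressor of E2F targets, fell in DU145 by 0.44. CDK6, a kinase that CCND1 activates, fell by 0.15 in PC3 (adjusted p = 0.00204) and rose in DU145, from 10.7, 10.8 and 11.0 to 16.8 and 15.8 normalized CPM, a change of 0.59 ± 0.122 on the log2 scale (adjusted p = 0.00351).

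Of 7 tested CDK inhibitors, 2 were lower and 1 higher in each line, which stands against 18.5% lower and 18.8% higher of all genes in PC3 and 9.42% and 10.7% in DU145. CDKN1A, the p21 inhibitor that is a target of p53, was read at 18.5, 18.3 and 17.8 normalized CPM in PC3 control and 13.2, 15.0 and 14.9 in overexpression libraries, a change of -0.34 ± 0.0782 on the log2 scale (adjusted p = 0.00061). In DU145 it was read at 40.9, 43.0 and 46.0 in control and 72.3 and 79.3 in overexpression libraries, a change of 0.81 ± 0.0880 on the log2 scale (adjusted p = 2.05e-05). CDKN1A thus fell in PC3 and rose in DU145, with a difference of 1.14 ± 0.110 on the log2 scale (adjusted p = 3.36e-07). CDKN3, a phosphatase of CDKs, fell in PC3 by 0.16 and CDKN2B, the p15 inhibitor, rose by 0.18. CDKN2C and CDKN2D, the p18 and p19 inhibitors of CDK4 and CDK6, fell in DU145 by 0.42 and 0.44.

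Each of the 55 genes was last set against its tested neighbours on the chromosome, up to 25 on each side. In PC3 the neighbours' medians lay between -0.10 and 0.07, and all 55 genes were below theirs, with a median gap of -0.21 for G1/S and -0.23 for G2/M genes. In DU145 the neighbours' medians were wider, between -0.27 and 0.23, and 19 of 23 G1/S and 30 of 32 G2/M genes were below theirs, with median gaps of -0.14 and -0.29. The share of all tested genes below their neighbours was not taken, so these counts have nothing to be read against. With neighbours' medians so small, the PC3 count largely repeats the direction of the 55 changes. MCM4 on chromosome 8, at -0.20 in DU145, had neighbours at -0.10. UHRF1 on chromosome 19, at -0.60, had neighbours at -0.23, and CHAF1A on the same chromosome at -0.16 had neighbours at -0.24. TTK on chromosome 6 and DLGAP5 on chromosome 14, a spindle protein, at -0.24 and -0.07, had neighbours at 0.17 and 0.23. The part of the neighbourhood in these values was not tested.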

How the data were processed

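RNA-Seq was carried out by the authors on PC3 and DU145 cells with the TruSeq Stranded mRNA kit and single reads. The authors trimmed reads with Cutadapt, aligned to hg38 with HISAT2 and ran featureCounts, all in Galaxy, and deposited raw counts per Entrez gene. The annotation and strand setting of the counting are not given in the sources used here, so reads of overlapping genes may be split or shared. DU145 overexpression replicate 1 is not analysed here. Of the 28395 identifiers, 97.7% matched RefSeq symbols.

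Counts were fitted with edgeR 4.0.16 (R 4.3.3), separately for each line (13544 genes in PC3, 13676 in DU145), and over all 11 libraries for the difference between the lines and between the control cells (14952 genes). filterByExpr with its defaults, TMM, estimateDisp and glmQLFit with robust estimation came before glmQLFTest, with Benjamini-Hochberg adjustment over all genes tested, and a standard error is the log2 fold change over the root of F. A call was an adjusted p under 0.05, and a fold call also a log2 fold change beyond 0.58 in size. In the fits the biological coefficient of variation came to 0.0226 in PC3, 0.0817 in DU145 and 0.0543 in the joint fit, and 3 counts corresponded to 0.165 to 0.227 CPM. Alternatives were limma-voom (limma 3.58.1), which the study used, DESeq2 1.42.0, no filter or at least 10 counts in each sample, RLE factors, a fit over all 4 groups, the replicate number as a block, each library left out, and removal of a quadratic trend on GC content and log transcript length. The scripts were tested on simulated counts.

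The 55 genes, the other lists, their markers and the tests were chosen with earlier results of these data known, and the lists were written by hand. Full values are given for genes that passed the fold call, for the 3 smallest adjusted p in each group of genes, direction and comparison (for control cells, the 3 largest fold calls), for 8 genes named in any case (MKI67, PCNA, E2F1, FOXM1, MYBL2, CCNB1, CDK1 and TOP2A), and for the fold-called genes and the 2 smallest adjusted p of each other list. CDT1, NDC80 in PC3 and the genes used as examples of neighbourhoods were added after their values were seen. No gene set test was run. Promoters and gene coordinates are from RefSeq, GRCh38.p14.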

Additional observations from a re-analysis of the deposited data

Results flagged for a closer look

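The results given here were flagged because the change with overexpression differed between the cell lines. The test was of that difference itself, the interaction in edgeR over all 11 libraries. Of the 55 genes, 5 passed with a higher and 1 with a lower change in DU145, where 19.7% of all 14952 tested genes passed. The 55 genes as a whole therefore did not stand out by this test. Each value is the change in DU145 minus the change in PC3, on the log2 scale.

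Among the G1/S genes the difference was 0.36 for TYMS (adjusted p = 0.00328), 0.41 for POLA1 (adjusted p = 0.00949) and -0.28 for RRM2 (adjusted p = 0.0229). TYMS and POLA1 fell in PC3 and did not pass the test in DU145, and RRM2 fell in both lines. Among the G2/M genes it was 0.38 for TOP2A (adjusted p = 0.0036), 0.38 for HMMR (adjusted p = 0.00521) and 0.28 for NDC80 (adjusted p = 0.048), which all fell in PC3 and did not pass in DU145. ST6GAL1, the gene that was introduced, differed by 1.06 (adjusted p = 0.000286), with a rise of 3.58 in PC3 and 4.65 in DU145.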

How the results depend on the processing

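In PC3 all 55 genes stayed below 0 under each of the 13 alternatives, and 12 G1/S and 29 G2/M genes passed under all of them. Fitted over all 4 groups, 12 G1/S genes passed in PC3 in place of 22, the count of the G1 cyclin, CDK, RB and E2F list went from 12 to 5, that of the CDK inhibitors from 3 to 1 and that of the other replication genes from 33 to 14. With each library left out, the PC3 counts were 20 to 21 G1/S and 31 to 32 G2/M genes, the G1/S median lay between -0.24 without control replicate 2 and -0.18 without control replicate 1, and the G2/M median between -0.26 and -0.24.

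The DU145 counts moved more. Of the G1/S genes 2 passed with limma-voom, 7 with no filter and 7 in the fit over all 4 groups, in place of 4, and of the G2/M genes 22 with no filter and 25 in the fit over all 4 groups, in place of 14. In the latter fit the other mitotic genes went from 22 to 38 and the CDK inhibitors from 3 to 5. The share of all tested genes passing was not taken in any alternative fit, in either line or for the difference between them. Whether these shifts in the counts concern the listed genes or all genes alike can therefore not be told. With each library left out the counts were 1 to 9 G1/S and 9 to 25 G2/M genes, and 0 to 3 genes passed the fold call. The lowest of each came without control replicate 2, and the highest without overexpression replicate 3, except the G2/M count, which was highest without overexpression replicate 2. Where 1 overexpression library is left, it is assumed to vary like the controls. The G2/M median lay between -0.31 without overexpression replicate 2 and -0.17 without replicate 3, and the G1/S median between -0.21 and -0.10. RRM2 alone of the G1/S genes and 9 G2/M genes passed under all 12 alternatives. Left-out libraries took the other replication genes from 8 to between 3 and 13, the other mitotic genes from 22 to between 8 and 31, and the G1 cyclin, CDK, RB and E2F list from 4 to between 2 and 5. Direction turned for genes that did not pass in DU145: MKI67 lay between -0.00706 (without control replicate 2) and 0.13, PCNA between -0.18 and 0.0233 (without overexpression replicate 3), and TOP2A between -0.0356 (without overexpression replicate 2) and 0.19.

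For the difference between the lines, 2 to 12 G1/S and 2 to 7 G2/M genes passed with each library left out, the most without DU145 overexpression replicate 3, while several of the fits shared the fewest. In the control cells 13 and 27 genes passed the fold call in each such fit. The causes of these shifts were not tested.

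The labels tie the replicate numbers to no shared batch, and same-numbered PC3 libraries had correlations of -0.002, 0.075 and 0.061, so the libraries were not treated as paired. In DU145, with 0.087 and 0.293 over the 2 shared numbers, the deviations of the 2 overexpression libraries mirror each other, and these values can show neither pairing nor its absence. With the replicate number as a block, 22 G1/S and 32 G2/M genes passed in PC3, 6 and 24 in DU145, and 7 and 5 for the difference between the lines, in place of 3 and 3. The medians under the block were -0.20 and -0.25 in PC3 and -0.12 and -0.26 in DU145, and ST6GAL1 rose by 3.58 and 4.73. The median standard error of 0.0836 in DU145, against 0.0369 in PC3, limits which falls can pass there.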
